A study of Mus musculus with 14 samples.

Results

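The vacuolar H+-ATPase (V-ATPase) is the proton pump that acidifies lysosomes, and its subunit genes were followed in mouse macrophages with and without extra TFEB. The set is 10 genes chosen by name: Atp6v0a1, Atp6v0b, Atp6v0c, Atp6v0d1, Atp6v0d2 and Atp6v0e of the membrane sector (V0), and Atp6v1a, Atp6v1b2, Atp6v1c1 and Atp6v1h of the cytosolic sector (V1). They are 10 of 21356 genes with a symbol on the array, and 12 probes match them, since Atp6v0d2 and Atp6v1a have 2 probes each. All 12 probes lay well above background on all 14 arrays, so no member was lost to the filter on dim probes. The cells were macrophages grown from the bone marrow of female C57BL/6 mice, 8 weeks old, for a week in recombinant M-CSF. All mice carried LysM-Double-Cre, which drives the Cre recombinase from a myeloid promoter. The transgenic groups also carried the TFEB transgene, and the wild-type groups, which have the Cre but lack the transgene, were their comparison. Cells of each genotype then spent 24 h in DMEM alone (control) or in DMEM with supernatant of EO771 tumour cells, a mouse mammary cancer line, and tumour lysate (tumour material).

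In the pump, the V1 sector hydrolyses ATP and turns a rotor, and the V0 sector uses that rotation to move protons across the membrane. TFEB is a transcription factor that is known to bind E-box elements in the promoters of many lysosomal genes, V-ATPase genes among them. In macrophages the pump acidifies phagosomes and lysosomes, and in osteoclasts, which arise from the same lineage, it acidifies the bone surface.

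The 14 one-colour arrays hold 11 replicates: 3 wild-type control, 3 wild-type tumour, 3 transgenic control and 2 transgenic tumour replicates. Replicate 3 has a second array in every group but the transgenic control, and transgenic tumour replicate 1 was not analysed here. Levels are given as scaled log2 signal, the log2 signal of a probe minus that of the array's 75th percentile, and a level of 1 probe cannot be set against that of another. Between 35.5% and 40.2% of probes lay well above background per array and no spot was saturated. The number of arrays, not a read depth, limits the precision. Transgenic control replicate 1 stood apart: its array correlated with those of its group at 0.955 and 0.957, while replicates 2 and 3 correlated at 0.980 and every pair in the other groups at 0.977 or more. All 3 transgenic tumour arrays were on the second slide, which held 1 array of each other group. Values from slide 2 alone therefore set single arrays against each other or against the transgenic tumour arrays. Single genes' values from it are given without a test, and the closing section gives only counts. The 3 arrays in column 4 of the slides, transgenic control replicates 1 and 2 and an array of transgenic tumour replicate 3, had the most uneven signal over the array surface, at 0.253 to 0.331 by Feature Extraction's detrending fit against 0.0964 to 0.126 on the others, and all 3 are transgenic. Differences below come from a fit with the slide as a term, so they can depart from the plain difference of the replicates' means. Of 8 macrophage markers, 7 were above background on all arrays of every group. The eighth, Lyz2, the gene at the LysM locus, was above background on 1 of 4 wild-type control, 3 of 4 wild-type tumour, 0 of 3 transgenic control and 0 of 3 transgenic tumour arrays, and was too dim to be tested. Of the 7 tested macrophage markers, limma called 4 higher with tumour material in wild-type cells (Adgre1, Fcgr1, Itgam and Cd14) and 1 lower (Mertk). Of all probes 22.1% and 17.2% were called so. In transgenic cells 3 were higher (Adgre1, Fcgr1 and Itgam) and 0 lower, against 14.9% and 10%. These counts take the brightest probe of a gene, and dimmer probes did not all go with it. In wild-type cells a dimmer Itgam probe averaged 3.61 in control and 3.14 with tumour material, and another 0.24 and 2.29. The dimmer Adgre1 probe averaged 6.70 and 6.40 in transgenic cells, and 6.26 and 6.62 in wild-type cells. Itgam and Cd14 were lower in transgenic than wild-type control cells, against 5.04% of all probes. With tumour material Cd14 was lower, against 2.38%. None of 4 epithelial markers was above background on any array. The Tfeb probe read 1.24, 1.07 and 1.14 in wild-type control and 1.60, 1.61 and 1.11 in transgenic control replicates, which overlap. With tumour material it read -0.48, -0.44 and -0.36 in wild-type and 0.27 and 0.13 in transgenic replicates, which do not overlap. The genotypes differed by 0.31 in control medium (adjusted p = 0.169, limma) and by 0.71 with tumour material (adjusted p = 0.0248). This Tfeb difference missed the threshold when either transgenic tumour replicate, replicate 1 or 3 of the wild-type tumour group, or replicate 3 of the wild-type controls was left out, with adjusted p from 0.0527 to 0.187. The sources used here do not say which bases this probe covers or which form of TFEB the transgene carries.

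The promoter letters of the subunits that hold a TFEB-type E-box are shown because this element is the known point of contact between TFEB and the pump. RefSeq windows of the GRCm38.p6 build, from 250 bases before to 50 bases after a gene start, were at hand for 6 of the 10 genes. Atp6v0d2, Atp6v1b2, Atp6v1c1 and Atp6v1h had none at hand. The letters CACGTG, which read the same on both strands, stood in 4 of the 6 genes with a window, against 8.09% of 27025 such genes. The longer palindrome TCACGTGA, which contains CACGTG, stood in 3 of the 6, against 1.125% of genes. Each stretch is on the strand of its gene, 5′ to 3′, with the motif in capitals.
Atp6v0d1, chr8:105566055-105566124, minus strand: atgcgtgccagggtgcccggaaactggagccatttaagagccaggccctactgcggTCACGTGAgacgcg
Atp6v0e, chr17:26676346-26676410, plus strand: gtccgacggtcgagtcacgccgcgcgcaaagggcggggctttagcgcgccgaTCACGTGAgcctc
Atp6v1a, chr16:44139373-44139402, minus strand: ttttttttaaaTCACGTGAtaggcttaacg
Atp6v0b, chr4:117887330-117887399, minus strand: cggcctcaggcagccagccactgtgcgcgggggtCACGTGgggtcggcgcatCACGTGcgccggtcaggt
Atp6v0c, chr17:24169679-24169748, minus strand: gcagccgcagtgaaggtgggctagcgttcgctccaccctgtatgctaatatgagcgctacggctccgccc
Counted from the gene start, whose first base is 1 with -1 before it, the long motif began at -4 in Atp6v0d1, at 3 in Atp6v0e and at -132 in Atp6v1a. The 2 short motifs of Atp6v0b began at -36 and -18. The window of Atp6v1a starts inside the outermost bounds of the annotated gene, so only 30 bases of it are shown. Atp6v0c is shown as a gene without the letters, in any of its 3 windows. Atp6v0a1 had none in its window, chr11:101010148-101010447. That window lies wholly inside the annotated gene, which starts at 101009422 on the plus strand. The bases before the outermost start of Atp6v0a1 were therefore not searched. A match is a description of letters and no binding was measured.

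**Figure D1:**
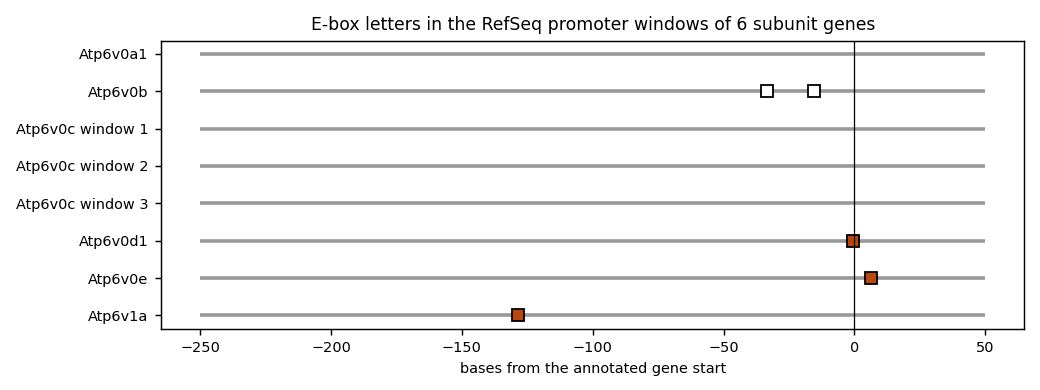
Position of the E-box letters in the RefSeq promoter windows of 6 subunit genes, in bases from the annotated gene start; filled squares mark the 8-letter palindrome, open squares the 6-letter core alone, and Atp6v0c has 3 windows. Matches stand in 4 of the 6 genes, and those of Atp6v0b, Atp6v0d1 and Atp6v0e lie within 36 bases of the start.

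Atp6v0d2 moved most. It encodes the d2 form of the V0 subunit that joins the rotor to the stalk, and it is known for its part in the fusion of osteoclast and macrophage precursors. Its brighter probe read 4.88, 5.49 and 4.995 in wild-type control replicates and 3.56, 3.61 and 3.01 with tumour material. All 3 tumour replicates lay below all 3 controls. The fall was 1.79 on the log2 scale (SE 0.23), a 3.46-fold lower signal with a 95% interval from -2.30 to -1.28 and an adjusted p of 9.26e-05 (limma, Benjamini-Hochberg over 20208 probes, threshold 0.05). The dimmer probe read 3.06, 3.40 and 3.13 against 1.29, 0.98 and 0.45, again with no overlap. It fell by 2.38 (SE 0.28, adjusted p = 3.78e-05). Within slides the brighter probe's difference was -1.72 on slide 1 (adjusted p = 0.00435) and -2.03 between the single arrays of slide 2. In bulk RNA of this kind, fewer cells of a type and less RNA per cell cannot be told apart.

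In transgenic cells the same probe read 4.55, 5.48 and 5.43 in control and 5.06 and 4.94 with tumour material, so that the groups overlapped. The difference was -0.14 (SE 0.31, 95% interval -0.81 to 0.53, adjusted p = 0.781). The dimmer probe read 2.52, 3.53 and 3.88 against 2.86 and 2.79, and also overlapped. Its difference was -0.62 (adjusted p = 0.249). Set beside each other with tumour material, both transgenic replicates lay above all 3 wild-type ones on either probe. The brighter probe was 1.71 higher in transgenic cells (SE 0.30, 3.27-fold, 95% interval 1.05 to 2.37, adjusted p = 0.00784), and the dimmer 1.87 higher (SE 0.36, adjusted p = 0.0118). In control medium the genotypes differed by 0.06 (SE 0.25, 95% interval -0.49 to 0.61, adjusted p = 0.913). In order of level, the group means of the brighter probe were 5.15 ± 0.52 (SD, n = 3) in transgenic control, 5.12 ± 0.33 (n = 3) in wild-type control, 4.9997 ± 0.087 (n = 2) in transgenic tumour and 3.39 ± 0.33 (n = 3) in wild-type tumour cells. The first 3 of these did not differ beyond their spread.

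The test of whether Atp6v0d2 responds differently in the 2 genotypes gave 1.65 for the brighter probe (SE 0.38, 95% interval 0.81 to 2.49), with an adjusted p of 0.0586, which misses the threshold. The dimmer probe gave 1.76 (adjusted p = 0.0926). Leaving out transgenic control replicate 1, the library that stood apart, gave 1.46 (adjusted p = 0.00915). Leaving out replicate 2 of that group gave 1.80 (adjusted p = 0.0354). The genotype difference with tumour material was not called without wild-type tumour replicate 3 (1.25, adjusted p = 0.224), which holds the sole wild-type tumour array on slide 2. Without transgenic tumour replicate 3, which leaves 1 replicate in that group, it was 1.69 (adjusted p = 0.142). With the repeat arrays left out, which leaves no wild-type array on slide 2, it was 1.21 (adjusted p = 0.288). On slide 2 alone, against 1 wild-type array, it was 2.01. Without the arrays of column 4 it was 1.74 (adjusted p = 0.00506), and the difference between the responses was 1.35 (adjusted p = 0.0803). Without the slide term the latter was 1.61 (adjusted p = 0.0312).

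**Figure D2:**
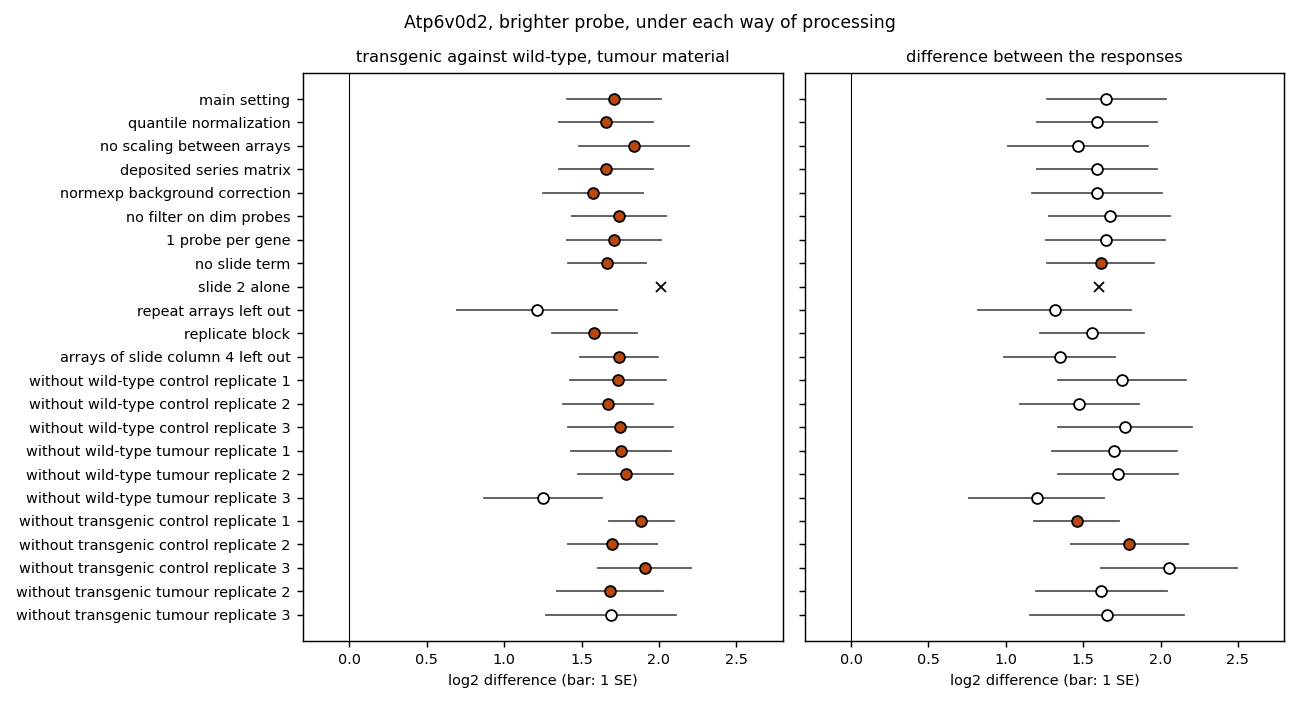
Log2 difference of the brighter Atp6v0d2 probe (x axis, bars 1 SE) between transgenic and wild-type cells with tumour material (left) and between the genotypes' responses (right), under each way of processing; filled points have an adjusted p under 0.05, and crosses, for slide 2 alone, carry no test. The left values run from 1.21 to 2.01 and the right ones from 1.20 to 2.06, all above 0.

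Markers of other cells moved with these groups. Of 7 neutrophil markers all were above background in both controls, and Ngp was on no array with tumour material. Their summed scaled log2 signal ran from 8.11 to 8.21 in wild-type control, 5.98 to 6.74 in wild-type tumour, 7.69 to 9.38 in transgenic control and 5.22 to 5.36 in transgenic tumour replicates. With tumour material 6 of the 7 fell in wild-type and 7 in transgenic cells, against 17.2% and 10% of all probes. Between genotypes, 2 were called higher in transgenic control cells, Mpo and Elane, and 0 lower, against 3.39% and 5.04% of all probes. With tumour material 2 were called lower in transgenic cells, S100a8 and S100a9, and 0 higher, against 2.38% and 1.97%.

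Fibroblast markers differed as well. The summed signal of the 5 ran from 0.71 to 4.74, 5.30 to 5.70, 0.10 to 3.55 and 3.21 to 3.40 in the same order of groups. In wild-type cells 2 of them, Lum and Dcn, rose with tumour material, against 22.1% of all probes. Lum, a matrix proteoglycan, was well above background on no control array of either genotype, and read 2.37, 2.61 and 2.63 in wild-type tumour and -1.71 and -1.89 in transgenic tumour replicates, where 2 of 3 arrays were above background. With tumour material all 5 were lower in the transgenic replicates by value, with a median of -2.70. Of them Lum passed (-4.41, adjusted p = 6.55e-08), against 2.38% of all probes. Lum was also called lower in the test of the difference between the responses, against 0.718% of all probes. In control medium Col3a1 was called lower in transgenic than wild-type cells, against 5.04% of all probes.

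Of 5 osteoclast markers 3 were above background on all arrays and 2, Calcr and Ocstamp, on none. Their summed signal ran from 6.61 to 6.97, 8.17 to 8.36, 7.04 to 8.55 and 9.11 to 9.34. Single genes went in different directions. Acp5, an osteoclast phosphatase, rose with tumour material by 1.66 in wild-type cells (adjusted p = 0.000806) and by 2.02 in transgenic cells (adjusted p = 0.00226). Ctsk, a collagen-cleaving protease, differed by -0.43 in wild-type cells (adjusted p = 0.195) and was 1.52 higher in transgenic than wild-type cells with tumour material (adjusted p = 0.0224). Tested too were 6 genes of precursor fusion and osteoclast formation, which share Acp5 and Ctsk with the markers. Of these, 3 fell with tumour material in wild-type cells and 1 rose, against 17.2% and 22.1% of all probes. Those that fell were Dcstamp, a fusion protein (-1.40, adjusted p = 0.000242), Nfatc1, an osteoclast transcription factor (-0.72, adjusted p = 0.00594), and the integrin Itgb3 (-1.49, adjusted p = 0.00262). In transgenic cells Dcstamp and Itgb3 fell too, by differences of -1.38 (adjusted p = 0.00313) and -1.58 (adjusted p = 0.0144). Of all probes 10% fell there. The part of other cells in the subunit values was not tested.

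**Figure D3:**
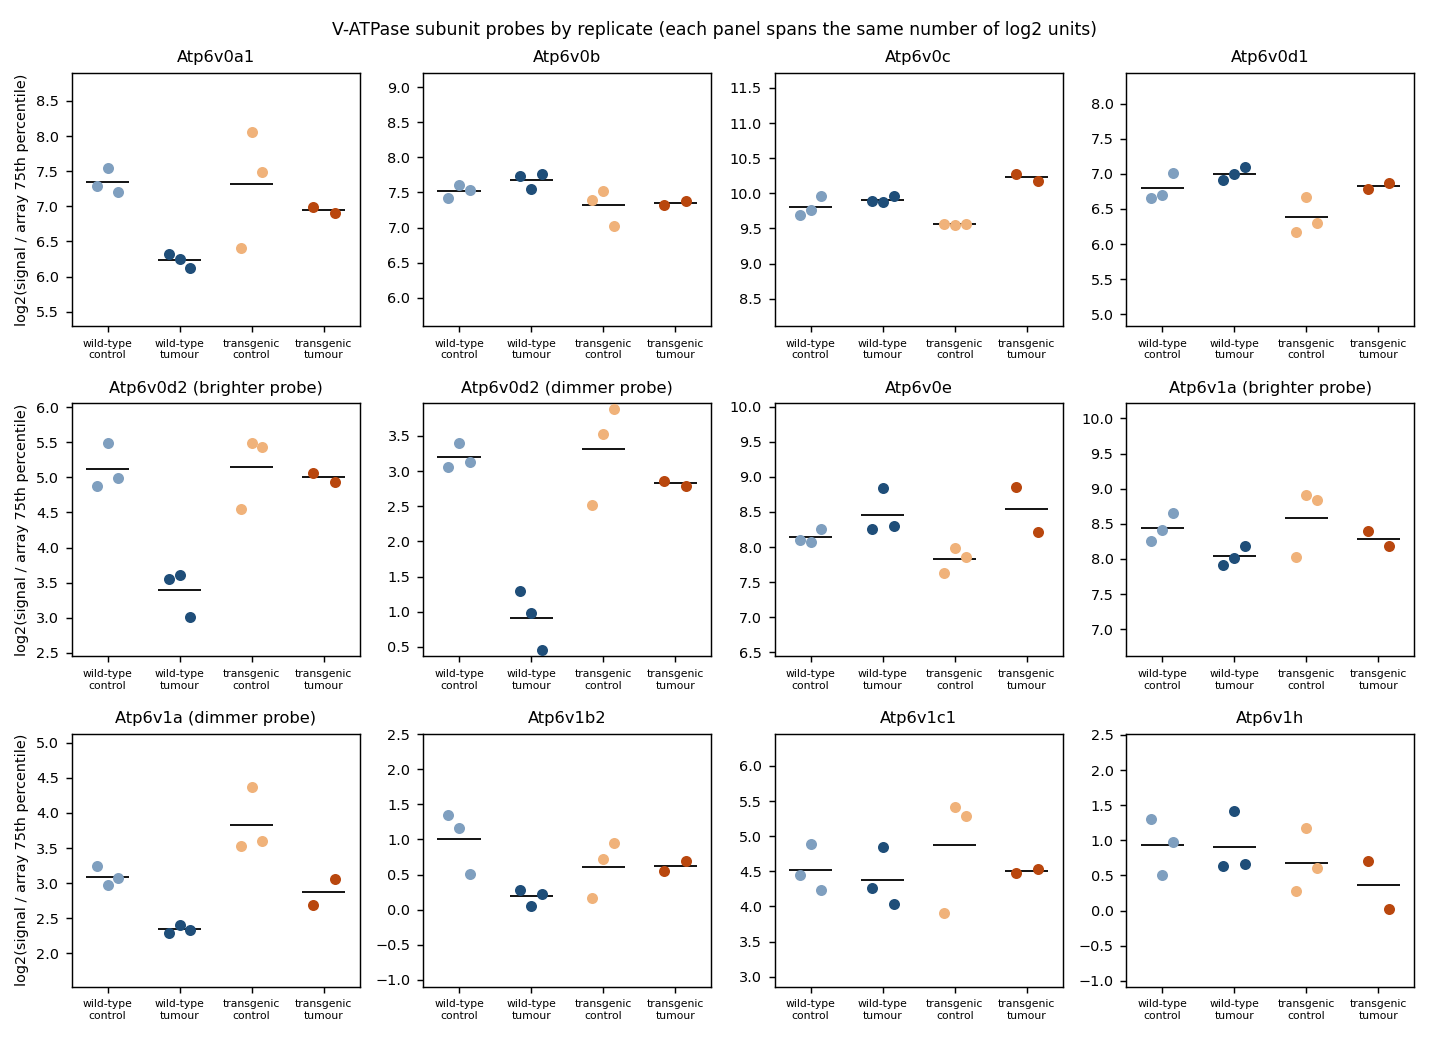
Scaled log2 signal (y axis, every panel spanning the same number of log2 units) of the 12 subunit probes in each replicate, by group; points are replicates with repeat arrays averaged and lines are group means. Both Atp6v0d2 probes and Atp6v0a1 sit lowest in wild-type tumour replicates, while Atp6v0c is highest in the 2 transgenic tumour replicates.

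Among all 10 genes, each represented by its brighter probe, 3 fell with tumour material in wild-type cells and 0 rose. Of all probes tested, 17.2% fell and 22.1% rose in that comparison. At an unadjusted p under 0.05 limma counted 4 of the genes lower and 0 higher, against 21.2% and 26.7% of all probes. The median difference of the 10 genes was -0.12, and that of all probes 0.03. By sector, 4 of 6 V0 genes had a difference above 0 and all 4 V1 genes one below 0, most of them short of the threshold. Outside the 10 genes, Atp6v1e1 of V1 stood at 0.27 (SE 0.11, adjusted p = 0.0704) and Atp6v1d at 0.0055. The V1 genes Atp6v1f, Atp6v1g1 and Atp6v1g2 lay below 0.

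Atp6v0a1 encodes the a1 form of the V0 subunit that holds the proton channels. It read 7.29, 7.54 and 7.20 in wild-type control and 6.32, 6.26 and 6.13 with tumour material. The replicates of each medium stood close together and the media did not overlap. It fell by 1.10 (SE 0.27, 2.15-fold lower, adjusted p = 0.00742). On slide 1 the difference was -1.17 (adjusted p = 0.0462) and between the single arrays of slide 2 -0.90. Without wild-type tumour replicate 3 the difference of Atp6v0a1 was -1.03 (adjusted p = 0.0713). In transgenic cells it read 6.40, 8.06 and 7.48 in control and 6.99 and 6.91 with tumour material. Replicate 1 was the low one of the controls, which enclose both tumour values. The difference there was -0.34 (SE 0.36, adjusted p = 0.541). Both transgenic tumour replicates lay above the wild-type ones, by 0.77 (SE 0.36, 95% interval -0.0022 to 1.55), but the adjusted p was 0.275. When transgenic control replicate 1 was left out, 3 of its differences passed the threshold. They were 0.96 between the genotypes with tumour material (adjusted p = 0.00107), -0.68 between the media in transgenic cells (adjusted p = 0.00393) and 0.55 between the genotypes in control medium (adjusted p = 0.0158).

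Atp6v1b2 encodes the B2 subunit, which forms the ATP-binding head of V1 together with the A subunit. It read 1.35, 1.16 and 0.50 in wild-type control and 0.28, 0.060 and 0.23 with tumour material. Wild-type control replicate 3 was nearest to the tumour values without reaching them. The fall was 0.69 (SE 0.22, 1.61-fold lower, adjusted p = 0.0260). Its probe was among the dimmest of the set, with raw signals from 72.9 to 234. The difference was -0.84 on slide 1 (adjusted p = 0.0284) and -0.20 between the single arrays of slide 2. Leaving out wild-type control replicate 1 or 2, or wild-type tumour replicate 2 or 3, gave differences of -0.53, -0.59, -0.64 and -0.72, with adjusted p of 0.0847, 0.0775, 0.0676 and 0.118. With normexp background correction it was -0.40 (adjusted p = 0.101), and with no filter on dim probes -0.66 (adjusted p = 0.0833). In transgenic cells it read 0.16, 0.72 and 0.95 in control and 0.56 and 0.70 with tumour material. These overlap, and the difference was 0.06 (SE 0.29, adjusted p = 0.911). The difference between the responses was 0.75 (adjusted p = 0.452).

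Atp6v1a encodes the catalytic A subunit. Its brighter probe read 8.26, 8.41 and 8.65 in wild-type control and 7.92, 8.01 and 8.18 with tumour material, without overlap. The difference of -0.42 (SE 0.18) had an adjusted p of 0.0906. The dimmer probe read 3.24, 2.97 and 3.07 against 2.29, 2.41 and 2.33 and did pass, with a difference of -0.75 (SE 0.24, adjusted p = 0.0263). The probes of this gene thus gave the same sign and fell on either side of the threshold. In transgenic cells the brighter probe read 8.02, 8.91 and 8.84 in control and 8.39 and 8.18 with tumour material. The difference was -0.57 (SE 0.24, adjusted p = 0.108). The dimmer probe read 3.53, 4.37 and 3.60 in control and 2.69 and 3.06 with tumour material, without overlap, and gave -0.84 (adjusted p = 0.0722). Between the genotypes the brighter probe differed by 0.07 in control medium and -0.08 with tumour material, while the dimmer one gave 0.75 and 0.66. With tumour material the transgenic values of the brighter probe nonetheless lay above the wild-type ones as measured, and the sign is that of the fit with the slide. Their adjusted p ran from 0.0952 to 0.893. Without transgenic control replicate 1 the brighter probe's difference with tumour material was -0.76 in transgenic cells (adjusted p = 0.00785) and -0.43 in wild-type cells (adjusted p = 0.0151). After quantile normalization these differences of Atp6v1a, with all replicates, were -0.87 (adjusted p = 0.0220) and -0.64 (adjusted p = 0.0173).

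In transgenic cells, 1 of the 10 genes rose with tumour material and 0 fell, against 14.9% and 10% of all probes. At an unadjusted p under 0.05 limma counted 2 higher and 1 lower, against 21.2% and 15% of all probes. The gene that rose was Atp6v0c, which encodes the c subunit of the proton-carrying ring. It read 9.56, 9.54 and 9.57 in control and 10.28 and 10.18 with tumour material. The 3 control values stood within a few hundredths of each other and both tumour values above them. The rise was 0.58 (SE 0.13, 1.49-fold, 95% interval 0.29 to 0.86, adjusted p = 0.00693). This call rested on the scaling: the difference was 0.34 after quantile normalization (adjusted p = 0.0697), 0.36 in the deposited normalized matrix (adjusted p = 0.0624) and 0.26 with no scaling (adjusted p = 0.281). Without transgenic control replicate 3 it was 0.48 (adjusted p = 0.0682). On slide 2 alone, against 1 transgenic control array, it was 0.66.

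In wild-type cells Atp6v0c read 9.69, 9.76 and 9.96 in control and 9.89, 9.88 and 9.97 with tumour material, and the media overlapped. The difference was 0.08 (SE 0.10, 95% interval -0.13 to 0.30, adjusted p = 0.546). The response differed between genotypes by 0.49 (SE 0.16, 95% interval 0.14 to 0.85), with an adjusted p of 0.205. All 3 transgenic controls lay below the wild-type controls, by 0.29 (adjusted p = 0.117). The mouse genome holds pseudogenes of Atp6v0c, and whether its probe also detects them was not tested.

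The remaining V0 genes passed in no comparison. Atp6v0d1 encodes the widely expressed d1 form, the counterpart of d2. It read 6.66, 6.70 and 7.01 in wild-type control, 6.91, 7.002 and 7.09 in wild-type tumour, 6.17, 6.66 and 6.30 in transgenic control and 6.79 and 6.87 in transgenic tumour replicates. Its mean was lowest in transgenic control cells, where it differed from wild-type by -0.48 (SE 0.14, adjusted p = 0.0581). Its differences with tumour material were 0.18 in wild-type cells (adjusted p = 0.306, SE 0.13) and, in the transgenic ones, 0.37 (adjusted p = 0.143, SE 0.17). Without transgenic control replicate 2 the genotype difference in control medium was -0.68 (adjusted p = 0.00602) and the response of transgenic cells 0.49 (adjusted p = 0.0163). With normexp the genotype difference of Atp6v0d1 in control medium was -0.50 (adjusted p = 0.0327). Its raw signals overlapped there, at 7553, 10619 and 9404 on transgenic and 9246 to 10439 on wild-type control arrays. With no scaling between arrays 0 of the 10 genes were lower in that comparison at an unadjusted p under 0.05 (limma).

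Atp6v0b encodes the second kind of proteolipid in the ring, and Atp6v0e a small V0 subunit. Atp6v0b read 7.42, 7.61 and 7.54 in wild-type control, 7.74, 7.55 and 7.77 in wild-type tumour, 7.40, 7.52 and 7.03 in transgenic control and 7.32 and 7.37 in transgenic tumour replicates. Its difference with tumour material came to 0.18 in either genotype (SE 0.13 in wild-type and 0.17 in transgenic cells), and the difference between these responses was -0.00075 with a 95% interval from -0.46 to 0.46. Atp6v0e read 8.10, 8.07 and 8.26 in wild-type control, 8.26, 8.84 and 8.29 in wild-type tumour, 7.63, 7.98 and 7.86 in transgenic control and 8.86 and 8.22 in transgenic tumour replicates. Tumour replicates lay above controls in both genotypes, narrowly in wild-type cells, where the nearest values were within a hundredth. The difference was 0.63 in transgenic cells (SE 0.24, adjusted p = 0.0784) and 0.26 in wild-type cells (SE 0.18, adjusted p = 0.297). Without transgenic tumour replicate 3 the transgenic value was 1.05 (adjusted p = 0.0254), resting on the single replicate left. With normexp, Atp6v0e passed in both genotypes, at 0.61 in transgenic (adjusted p = 0.0276) and 0.36 in wild-type cells (adjusted p = 0.0424).

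Of V1, Atp6v1c1 encodes subunit C1, a stator part that leaves the complex when the sectors come apart, and Atp6v1h encodes the regulatory subunit H. Atp6v1c1 ranged from 4.23 to 4.89 in wild-type control, 4.04 to 4.85 in wild-type tumour, 3.91 to 5.42 in transgenic control and 4.48 to 4.53 in transgenic tumour replicates. The low transgenic control was replicate 1. All groups overlapped and the differences ran from -0.27 to 0.43, with SE of 0.32 to 0.52. The genotypes differed by 1.02 in control medium when that replicate was left out (adjusted p = 0.00748). Atp6v1h ranged from 0.51 to 1.31, 0.64 to 1.42, 0.28 to 1.17 and 0.022 to 0.70 in the same groups. It too overlapped throughout, with differences from -0.34 to -0.090 and adjusted p from 0.706 to 0.968.

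**Figure D4:**
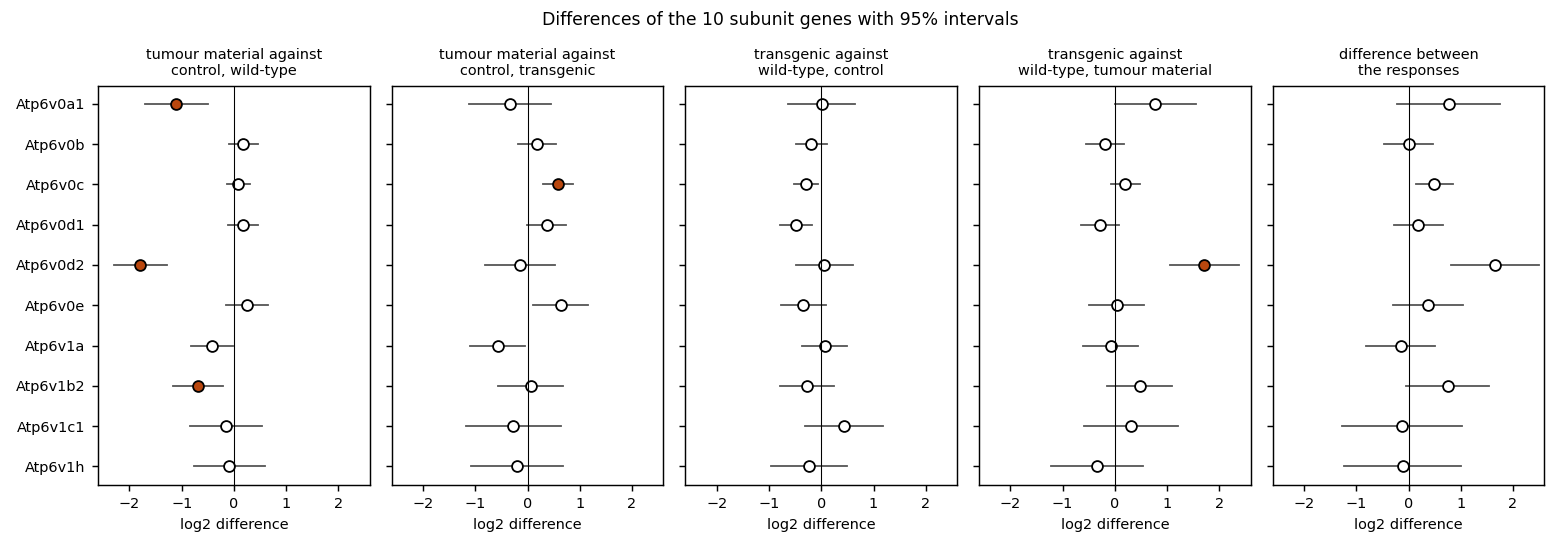
Log2 differences of the 10 genes (brighter probes) with 95% intervals in the 5 comparisons; filled points have an adjusted p under 0.05. Filled points are Atp6v0a1, Atp6v0d2 and Atp6v1b2 in the wild-type response, Atp6v0c in the transgenic response and Atp6v0d2 between genotypes with tumour material.

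The transgene comparison asked whether TFEB raises the pump's genes. In control medium 0 of the 10 genes were higher and 0 lower in transgenic cells by limma, against 3.39% and 5.04% of all probes. At an unadjusted p under 0.05, 0 were higher and 2 lower, Atp6v0c and Atp6v0d1, against 10.6% and 14% of all probes. This count depended on the scaling. With no scaling between arrays 0 were higher and 0 lower, against 26.9% and 3.35% of all probes. After quantile normalization 0 were higher and 1 lower, against 10.9% and 13.3%. The median difference of the 10 genes was -0.21 and that of all probes -0.03. With no scaling between arrays these medians were 0.15 and 0.30, so the genes' median was above 0 there but below that of all probes. With tumour material 1 of 10 was higher, Atp6v0d2, and 0 lower, against 1.97% and 2.38% of all probes, with a median of 0.12 against 0.003. In the test of the difference between the responses 0 of 10 passed in either direction, against 0.955% and 0.718% of all probes. At an unadjusted p under 0.05, 2 were higher there, Atp6v0c and Atp6v0d2, and 0 lower, against 6.84% and 5.19% of all probes. By their brighter probe the 4 genes with CACGTG in their promoter window, Atp6v0b, Atp6v0d1, Atp6v0e and Atp6v1a, passed in none of the 5 comparisons. Among the genes that passed, Atp6v0d2 and Atp6v1b2 had no window at hand. Genes with and without the letters therefore cannot be set against each other. The share of all genes with these letters that passed was not counted.

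By value, the difference with tumour material lay on the same side of 0 in both genotypes for 9 of 10 genes. Of these, 4 were above 0 (Atp6v0b, Atp6v0c, Atp6v0d1 and Atp6v0e) and 5 below (Atp6v0a1, Atp6v0d2, Atp6v1a, Atp6v1c1 and Atp6v1h). Atp6v1b2 was below 0 in wild-type and above 0 in transgenic cells. Most of these differences missed the threshold, so the signs are a description of the replicates. The share of all probes with the same sign in both genotypes was not counted.

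Of 15 other subunit and accessory genes on the array, 9 had a tested probe. In wild-type cells 2 of the 9 fell with tumour material and 0 rose, against 17.2% and 22.1% of all probes. Atp6v1f, a rotor part of V1, read 7.64, 7.92 and 7.70 in control and 7.45, 7.43 and 7.42 with tumour material, a difference of -0.31 (SE 0.10, adjusted p = 0.0268). Atp6v1g1, a stator part, read 6.84, 6.85 and 6.79 against 6.52, 6.50 and 6.44, a difference of -0.34 (SE 0.097, adjusted p = 0.0143). Both sets of replicates were apart. Atp6v1g1 was also lower in transgenic than wild-type control cells, at 6.38, 6.35 and 6.54, by a difference of -0.39 (SE 0.10, adjusted p = 0.0403). No other call was made among the 9, whose medians ran from -0.089 to 0.16 over the 5 comparisons. Single genotype differences ran from -0.39 to 1.12 in control medium and from -0.48 to 1.21 with tumour material. Both upper ends were Atp6v0a2 (SE 0.42 and 0.51, adjusted p = 0.129 and 0.232, limma). Its replicates overlapped in control medium and not with tumour material. Tcirg1, the a3 form found in osteoclasts and lysosomes, differed by -0.21 (SE 0.13) with tumour material in wild-type and by 0.010 (SE 0.17) in transgenic cells. Atp6v1f lost its call without any 1 of wild-type control replicates 2 and 3, wild-type tumour replicates 1, 2 and 3 or transgenic tumour replicate 3, with adjusted p of 0.0597 to 0.143. Atp6v1g1 lost its tumour call without wild-type tumour replicate 3 or transgenic tumour replicate 3 (adjusted p = 0.117 and 0.0796). Its genotype call in control medium was lost without any 1 of 9 of the 11 replicates.

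Likeness of pattern was measured as the root mean square distance between centred values over the 11 replicates, across 10964 other genes with a symbol and a tested probe. The genes nearest to Atp6v0d2 were Bhlhe41 and Endod1, both at 0.24, Mfge8 at 0.29, and Trerf1 and Tusc1, both at 0.31, against a median of 0.90 for all genes. Mfge8, for example, averaged 9.54 in wild-type control, 8.07 in wild-type tumour, 9.70 in transgenic control and 8.92 in transgenic tumour replicates, with the tumour mean below the control mean in both genotypes. The median profile of the other 9 subunits was nearly flat. Its nearest genes were Amacr at 0.075, Dad1 at 0.078, Borcs8 at 0.089, Gatb at 0.095 and Mrpl51 at 0.098, against a median of 0.38.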

How the data were processed

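The deposited scanner files hold background-corrected, processed Cy3 signal intensity per spot, per the file headers made by Feature Extraction 10.7.3.1 of Agilent, from 200 ng of RNA per the labels' protocols. The deposited matrix holds the authors' log2 values, and its columns share a median of 2.84. Its scale was read from its correlation with the scanner values (0.9987 or more on every array), while the sources used here do not state its normalization. Control spots and outlier spots were left out and spots of a probe averaged. The log2 signal minus each array's 75th percentile was tested with limma 3.58.1 in R 4.3.3 on 20208 probes well above background on every array of at least 1 group. The fit had 4 group means and the slide, and arrays of 1 replicate formed a random block (correlation 0.055). Titles that end in -2 were read as repeat arrays of a replicate, and values printed are replicate means. Benjamini-Hochberg adjustment ran over all 20208 probes, with a threshold of 0.05. The labels call the replicates biological, and nothing else states what sets them apart. For counts the brightest probe stood for a gene. All members were named. Genes in the lists of other subunits, assembly, ion transport, TFEB family and fusion genes were given as counts and named only when they passed or were subunits, and the 5 genes nearest in pattern were named. Members and lists were chosen with earlier results of these data known. Background correction with normexp used the median signal, and this and the other alternatives are given in the closing section. The fit was tested on simulated data, where small changes were mostly missed. Changes of 2-fold were recovered in 64% of cases in the wild-type and 38% in the transgenic response. Between genotypes it was 56% in control medium and 48% with tumour material. False calls made up 9.93%, 1.82%, 3.52% and 8.73% of calls in that order. The first and last are above the threshold, and the calls of Atp6v0a1, Atp6v0d2 and Atp6v1b2 come from those comparisons.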

Additional observations from a re-analysis of the deposited data

Results flagged for a closer look

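Mitf, a relative of TFEB, differed between the genotypes in its response to tumour material, by 0.78 on the log2 scale (SE 0.14, adjusted p = 0.0144, limma). Its replicates read 5.99, 6.13 and 5.98 in wild-type control, 5.89, 5.80 and 5.78 in wild-type tumour, 5.59, 5.55 and 5.52 in transgenic control and 6.13 and 6.04 in transgenic tumour cells. The response was -0.21 in wild-type (adjusted p = 0.0647) and 0.57 in transgenic cells (adjusted p = 0.00249). The call was lost without wild-type tumour replicate 3 (0.77, adjusted p = 0.201) and without transgenic tumour replicate 3 (0.83, adjusted p = 0.119). It was also lost for Mitf with no scaling (0.65, adjusted p = 0.456) and normexp (0.71, adjusted p = 0.229). The same held with no filter (0.78, adjusted p = 0.104) and without repeat arrays (0.79, adjusted p = 0.0871). A dimmer Mitf probe gave 0.86 (SE 0.19, adjusted p = 0.0508) in the main fit, which misses the threshold.

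Tmem9, which is known to promote assembly of the pump, was lower in every wild-type and higher in every transgenic tumour replicate. It read 2.32, 2.42 and 2.14 in wild-type control, 1.91, 1.53 and 1.69 in wild-type tumour, 2.54, 2.47 and 2.43 in transgenic control and 2.61 and 3.06 in transgenic tumour cells. The test of the difference between the responses gave 1.11 (SE 0.27, adjusted p = 0.0680), which misses the threshold. No group has 4 replicates, so no check for a single outlying replicate could be made.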

How the results depend on the processing

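Among the 12 member probes no called difference changed sign under any alternative. Of the members' values under alternatives, 1074 kept their side of the threshold, 28 came to pass and 18 no longer did. Among those 1074, the sign differed for 104, with neither value called. Of the other named genes 1 called value turned: Mcoln1 between genotypes in control medium was -0.62 and became 0.036 with normexp (adjusted p = 0.879). Another 2056 of their values kept their side of the threshold, and the sign differed for 96 of these, with neither value called.
Residuals of same-numbered samples correlated at -0.22 to 0.19, and those of different numbers at -0.22 to 0.22, so no pairing was seen. They were centred within groups of 2 or 3 replicates, and the 2 transgenic tumour residuals must mirror each other. This check therefore cannot decide whether the numbers pair the samples. With the replicate block the members called were those counts again (0 higher and 3 lower, 1 and 0, 0 and 0, 1 and 0, 0 and 0), over 7768, 4662, 1348, 649 and 306 probes.
In the wild-type response, 7957 probes passed, 1350 on slide 2 alone and 4944 to 10020 with a replicate left out. Members lower were 3, 1 on slide 2 alone and 1 to 4 with a replicate left out. Members higher were 0, 1 with normexp and 0 with any replicate left out.
In the transgenic response, 5045 probes passed, 2334 on slide 2 alone and 2861 to 6645 with a replicate left out. Members higher were 1, 0 with quantile normalization, no scaling, the deposited matrix or slide 2 alone, 2 with normexp or column 4 of the slides left out, 3 without the slide term and 0 to 2 with a replicate left out. Members lower were 0, 1 with quantile normalization, no scaling, the matrix or normexp, and 0 to 2 with a replicate left out.
Between genotypes in control medium, 1704 probes passed, 1042 with no filter, 0 on slide 2 alone (3477 at an unadjusted p under 0.05, limma) and 509 to 3332 with a replicate left out. Members lower were 0, 1 with normexp or column 4 left out and 0 to 1 with a replicate left out, and members higher 0 to 2.
Between genotypes with tumour material, 879 probes passed, 415 with no scaling, 575 with no filter, 1394 without the slide term, 0 on slide 2 alone (2871 unadjusted), 214 without repeat arrays, 1924 with column 4 left out and 138 to 2561 with a replicate left out. Members higher were 1, 0 on slide 2 alone or without repeat arrays, 2 with column 4 left out and 0 to 2 with a replicate left out.
For the difference between responses, 338 probes passed, 124 with no scaling, 202 with no filter, 0 on slide 2 alone (2292 unadjusted), 109 without repeat arrays, 943 with column 4 left out and 52 to 1401 with a replicate left out. Members higher were 0, 1 without the slide term and 0 to 1 with a replicate left out. The cause of these shifts was not tested, except that leaving out arrays leaves fewer samples. Slide 2 alone takes its spread from the transgenic tumour arrays only, so its counts say nothing about stability.
With no scaling, the median of all probes moved to -0.16, -0.26, 0.30, 0.21 and -0.10 in the 5 comparisons, and the share of calls that were higher from 56.2%, 59.8%, 40.2%, 45.4% and 57.1% to 37.3%, 29.2%, 85.5%, 62.9% and 42.7%. With normexp that share was 53.0% between genotypes in control medium and 46.4% for the difference between responses.
Each group has 2 or 3 replicates, and all transgenic tumour arrays share 1 slide, so their values rest on the slide term. Dim probes such as those of Atp6v1b2 and Atp6v1h carry less signal over background.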

Other observations

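Of 8 tested genes for assembly of the pump, 1 rose and 2 fell with tumour material in wild-type cells, against 22.1% and 17.2% of all probes. Dmxl2, a part of the complex that joins the sectors, rose by 1.87 (adjusted p = 5.00e-06), and Rogdi, of the same complex, fell by 1.96 (adjusted p = 6.17e-05). Tmem9 fell by 0.55 (adjusted p = 0.0185). In transgenic cells Dmxl2 rose by 1.95 and Rogdi fell by 1.59 (adjusted p = 0.00336). Dmxl2 was lower in transgenic than wild-type cells, by a difference of -1.45 in control medium (adjusted p = 0.000609). With tumour material its difference was -1.36 (adjusted p = 0.00441), and Tmem9 was higher by 1.35 (adjusted p = 0.00378). A dimmer Tmem9 probe gave 0.71 in that comparison (adjusted p = 0.0757), which misses the threshold.

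Of 12 tested lysosomal ion transport genes, 1 rose and 3 fell with tumour material in wild-type cells, against 22.1% and 17.2% of all probes. In transgenic cells 3 rose and 2 fell, against 14.9% and 10%. Tpcn1, a two-pore channel, fell by 2.09 and 2.21 (adjusted p = 1.73e-05 and 0.000183). Slc9a9, a sodium-proton exchanger of endosomes, fell by 1.88 and 1.85 (adjusted p = 6.73e-06 and 0.000131). Clcn5, a chloride-proton exchanger, rose by 0.76 and 0.74 (adjusted p = 0.00271 and 0.0223). Ostm1, the partner of Clcn7, fell by 0.33 in wild-type cells (adjusted p = 0.0247), and Clcn7, a chloride-proton exchanger of lysosomes, rose by 0.61 in transgenic cells (adjusted p = 0.00884). Mcoln1, a cation channel of lysosomes, was lower in transgenic than wild-type control cells, by a difference of -0.62 (adjusted p = 0.0261). Mcoln2, a related channel, rose by 0.87 in transgenic cells (adjusted p = 0.0498) and was 1.47 higher in transgenic than wild-type cells with tumour material (adjusted p = 0.0149). Of 4 TFEB family genes, Tfec rose by 1.82 and 2.47 with tumour material, and Tfeb itself fell by 1.56 and 1.15 (adjusted p = 1.56e-06 and 0.000254). Of all probes, 22.1% rose and 17.2% fell in wild-type cells, and 14.9% and 10% in transgenic cells.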
